A study of Homo sapiens with 12 samples.

Results

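ONS76 cells under fluid shear stress (FSS) were compared with static ONS76 cells over all genes that passed a count filter. The comparison used 6 of the 12 RNA-seq libraries of the series, 3 under FSS and 3 static, chosen by their titles in the deposited count table, and 19631 of its 63241 genes. ONS76 is a human medulloblastoma cell line, labelled wild type, and both groups were kept in artificial cerebrospinal fluid (aCSF) in 6-well plates. FSS plates were gyrated on an orbital shaker at 100 rpm inside the incubator for 18 h, and static plates were not shaken, so the effect of shear and any other effect of shaking cannot be told apart. A second medulloblastoma line, DAOY, was treated in the same way and enters below only where its response was tested against that of ONS76. The design text calls the 3 libraries of a group biological replicates. How the cultures were separated is not given in the sources used here, and p-values therefore refer to the spread among these 6 and the DAOY libraries.

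Medulloblastoma is a tumour of the cerebellum that can spread through the cerebrospinal fluid, where cells meet moving fluid. Cells sense fluid drag through ion channels, integrins, the glycocalyx and the cytoskeleton, and in blood vessel cells shear is known to reach KLF transcription factors, calcium entry and growth factor signalling. The RNA groups below are ordered by role: protein folding, cold-inducible RNA-binding proteins, division and DNA synthesis, protein supply, metabolism, interferon, signalling, and matrix and epithelial genes.

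Library totals were 41.4, 45.4 and 43.0 M counts (1 M is 1e6) under FSS and 49.3, 39.4 and 40.2 M in static libraries 1, 2 and 3. Values are given as counts per 1e6 counts (CPM), scaled by edgeR's TMM factors, and responses as log2 fold changes of FSS minus static. The spread was small: the common biological coefficient of variation over the 12 libraries was 4.87%. Of the 14 granule-neuron lineage markers, 3 were at 1 CPM or more (ZIC2, EN2 and MEIS1), and ATOH1, NEUROD1, OTX2 and EOMES were at 0 in all 6 libraries. Of the 10 neural progenitor markers 5 were at 1 CPM or more (VIM, NOTCH1, CDH2, HES1 and NES), and the list summed to 2537 to 2585 CPM under FSS and 2374 to 2465 CPM in static cells. SOX2 and SOX9 of that list were at 0, although a count of 0 in this table need not mean a silent gene. The 10 epithelial markers summed to 1903 to 1962 CPM under FSS and 1926 to 2116 CPM in static cells, led by KRT8, KRT18 and TP63. Few of the granule-neuron lineage markers thus reached 1 CPM.

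The response was wide and mostly small. Under FSS 2770 genes rose (14.1% of 19631 tested) and 2735 fell (13.9%), 5505 in all (28.0%; edgeR's quasi-likelihood test, Benjamini-Hochberg adjusted p under 0.05). The median absolute log2 fold change of these genes was 0.32, and 50.7% of them changed by less than 1.25-fold. Only 344 genes (1.75%) rose and 320 (1.63%) fell 2-fold or more, and a test against a 1.2-fold change called 678 rises and 658 falls. Among the 12630 genes at a mean of 1 CPM or more, 39.1% were called, 19.6% risen and 19.5% fallen. Values of the 3 FSS libraries lay wholly above or below the 3 static ones in 94.1% of called genes and in 38.7% of all tested genes.

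**Figure D1:**
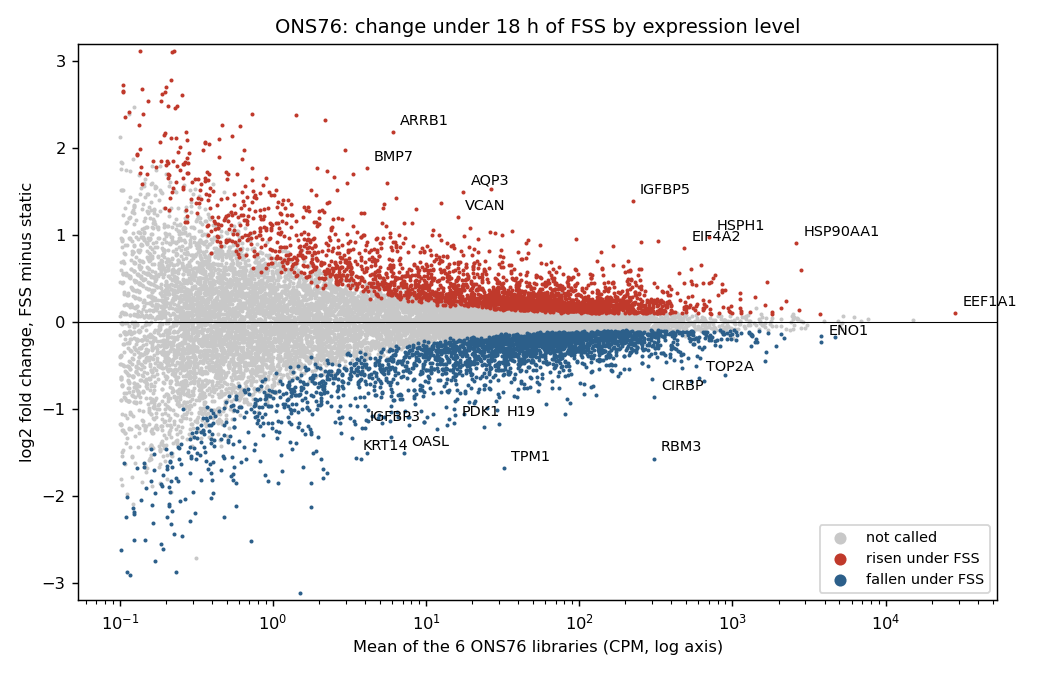
The log2 fold change of FSS minus static is plotted against the mean CPM of the 6 ONS76 libraries (log axis) for 17159 tested genes, with risen genes in red, fallen genes in blue and the others in grey (2472 genes below 0.1 CPM or beyond 3.2 on the log2 scale are not drawn). Most calls at high levels lie close to 0, while HSPH1, HSP90AA1, EIF4A2, IGFBP5 and RBM3 stand away from 0 at more than 100 CPM.

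The first principal component of the 6 ONS76 libraries held 76.1% of the variance and separated FSS (-14.3 to -11.0) from static (12.4 to 13.1). The second held 7.30% and set static library 3 (-5.97) apart from static libraries 1 and 2 (2.72 and 3.56). The FSS libraries were also spread along it, from -3.49 to 4.79. Between static libraries 0.16% (1 and 2) to 0.50% (3 against either) of 9946 genes lay 0.5 or more apart on the log2 scale. The share was 0.29% to 0.32% between FSS libraries and 5.83% to 7.87% between an FSS and a static library. How far the calls rest on each static library is given after the gene groups.

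Stretches of promoters of 9 list members are shown because the named motifs of their known regulators were searched in the 250 bases before each RefSeq start (GRCh38.p14, either strand, 12759 tested genes matched by symbol). Each is written 5′ to 3′ on the gene's strand with every match in capitals. The heat shock element was searched as GAA, TTC and GAA with 2 free bases between units, and the ER stress element as CCAAT and CCACG with 9 free bases between them. The E2F motif was TTTCCCGC or TTTGGCGC, the cell cycle homology region (CHR) was TTTGAA, and the interferon response element was a pair of GAAA units with 2 free bases between them.
HSP90AA1 (heat shock element), chr14:102087075-102087177, minus strand: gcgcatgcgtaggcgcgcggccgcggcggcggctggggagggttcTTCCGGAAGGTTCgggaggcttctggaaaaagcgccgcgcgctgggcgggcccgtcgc
CHORDC1 (heat shock element), chr11:90223050-90223144, minus strand: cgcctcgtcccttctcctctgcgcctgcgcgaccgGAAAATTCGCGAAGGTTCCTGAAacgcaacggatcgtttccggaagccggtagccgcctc
HSPA5 (ER stress element), chr9:125241346-125241454, minus strand: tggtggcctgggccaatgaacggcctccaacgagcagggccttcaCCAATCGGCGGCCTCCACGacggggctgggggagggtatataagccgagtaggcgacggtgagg
MCM6 (E2F), chr2:135876481-135876578, minus strand: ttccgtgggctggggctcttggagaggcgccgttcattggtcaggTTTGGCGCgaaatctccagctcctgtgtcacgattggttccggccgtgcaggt
MCM7 (E2F), chr7:100101532-100101629, minus strand: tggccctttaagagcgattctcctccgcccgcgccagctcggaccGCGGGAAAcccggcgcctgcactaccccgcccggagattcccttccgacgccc
TOP2A (CHR), chr17:40417997-40418092, minus strand: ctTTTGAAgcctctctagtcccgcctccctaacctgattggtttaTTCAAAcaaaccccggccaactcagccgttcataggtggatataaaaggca
CDK1 (CHR), chr10:60778125-60778220, plus strand: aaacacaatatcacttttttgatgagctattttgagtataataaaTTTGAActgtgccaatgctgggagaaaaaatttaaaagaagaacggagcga
PARP9 (interferon response element), chr3:122564301-122564386, minus strand: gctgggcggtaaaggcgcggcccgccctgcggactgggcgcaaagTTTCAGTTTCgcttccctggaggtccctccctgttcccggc
ISG15 (interferon response element), chr1:1013345-1013444, plus strand: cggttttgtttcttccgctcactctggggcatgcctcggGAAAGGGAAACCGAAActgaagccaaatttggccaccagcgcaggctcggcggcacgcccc

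The heat shock element was found for 6 of 20 cytosolic heat shock genes with a promoter in the table, against 0.439% of all 12759 genes, 0.694% of risen genes and 0.0969% of fallen genes. The ER stress element was found for 7 of 22 ER chaperone genes and 0.133% of all genes. E2F motifs were found for 16 of 35 replication genes and 3.56% of all genes, and the CHR for 25 of 41 mitotic genes and 12.98% of all genes. Homologous recombination and Fanconi genes, which mostly fell too, held E2F motifs in 1 of 23 and the CHR in 3 of 23. The interferon response element was found for 13 of 21 interferon-stimulated genes and 3.33% of all genes. Over the whole response the CHR was in 12.8% of fallen and 13.3% of risen genes, close to its share of all genes. The ER stress element was in 0.396% of risen and 0% of fallen genes, and E2F motifs were in 3.22% of risen and 4.80% of fallen genes. The interferon response element was in 3.72% of risen and 2.81% of fallen genes, although more interferon-stimulated genes fell than rose. A match describes letters in this window and is not a bound site.

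Most cytosolic heat shock chaperones rose. Of 22 tested members of this list 17 rose and 1 fell, with a median of 0.33 against 0 over all tested genes. HSPH1 (chr13:31134974-31162388, GENCODE 29), a nucleotide exchange factor for HSP70, measured 903, 968 and 936 CPM under FSS and 480, 470 and 473 CPM in static cells. Its log2 fold change was 0.98 (SE 0.04, adjusted p = 1.85e-18). HSP90AA1, the stress-inducible HSP90 (promoter above), measured 3321, 3554 and 3390 CPM under FSS and 1857, 1767 and 1831 CPM in static cells, a change of 0.91 (SE 0.04, adjusted p = 2.37e-18). In both genes every FSS library lay far above every static library.

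The rest of the chaperone machinery moved by unequal amounts. HSPA1A and HSPA1B, the inducible HSP70 copies, rose by 0.93 and 0.92, but their sequences are nearly identical and the split of reads between them is uncertain. The co-chaperones CHORDC1, DNAJA1 and AHSA1 rose by 0.70, 0.61 and 0.58, the constitutive HSP70 HSPA8 by 0.60 and the small heat shock protein HSPB1 by 0.65. HSP90AB1, the constitutive HSP90, rose by only 0.09 (0.07 against static library 3 alone). HSF2, a heat shock transcription factor, fell by 0.26 (log2 fold change -0.17 against static library 3 alone), and HSF1 was not called.

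ER chaperones and unfolded protein response genes rose less. Of 23 tested members 17 rose and 1 fell, with a median of 0.20. HSPA5, the ER HSP70 whose promoter is shown above, measured 650, 676 and 679 CPM under FSS and 477, 497 and 517 CPM in static cells (0.43, SE 0.04, adjusted p = 3.48e-10), with no overlap. MANF, XBP1 and HSP90B1, an ER-resident neurotrophic factor, a transcription factor of the response and the ER HSP90, rose by 0.45, 0.41 and 0.40. The fallen member was EDEM1 (-0.44), which feeds misfolded glycoproteins to degradation. The ATF4 amino acid stress list was near the background, with 5 risen and 3 fallen of 22 (3 risen without FSS library 1 or 2, and 2 without static 1).

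Cold-inducible RNA-binding proteins fell in the same libraries. RBM3 (chrX:48574449-48579066), which is made at low temperature and binds RNA, measured 152, 151 and 160 CPM under FSS and 467, 459 and 447 CPM in static cells. It was 2.97-fold lower under FSS (log2 fold change -1.57, SE 0.04, adjusted p = 1.51e-23), the smallest p among the genes named here. CIRBP, its relative, measured 218, 223 and 210 CPM against 382, 400 and 402 CPM (-0.86, SE 0.04). Of the 6 members of the cold-inducible list 5 fell, among them the RNA-binding proteins SRSF5 (-0.75) and RBMX (-0.38). The remaining members are not RNA-binding proteins: the mitochondrial carrier UCP2 fell by 1.02 at under 1 CPM in all libraries and was not called against static library 3 alone (-0.70), and the HSP70 relative HSPA1L (0.19) was not called.

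Mitotic genes fell without exception among those tested. All 48 tested members of the G2/M list fell, with a median of -0.46, the smallest change being that of FOXM1 (-0.14) and the largest that of NDC80 (-0.81), a kinetochore protein. CDK1, the kinase that drives entry into mitosis (promoter above), measured 40.6, 40.1 and 42.7 CPM under FSS and 67.9, 66.5 and 67.1 CPM in static cells (-0.71, SE 0.04, adjusted p = 7.98e-14). TOP2A, the topoisomerase that untangles chromosomes, measured 470, 479 and 470 CPM against 774, 699 and 751 CPM (-0.65, SE 0.04, adjusted p = 8.20e-15). Neither gene had an overlap between groups. The proliferation marker MKI67 fell by 0.27, the kinesin KIF2C by 0.77 and the kinase AURKB by 0.76. In bulk RNA, fewer cells in mitosis and less RNA per mitotic cell cannot be told apart.

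Most DNA replication genes fell as well. Of 40 tested G1/S and replication genes 31 fell and 0 rose (median -0.35). MCM6, a subunit of the replicative helicase whose promoter is shown above, measured 31.9, 33.0 and 31.4 CPM under FSS and 49.9, 52.1 and 52.4 CPM in static cells (-0.68, SE 0.05, adjusted p = 9.21e-13). MCM7, another subunit, fell by 0.51. CDC45, a component of the active replicative helicase, fell by 0.91, the polymerase subunit POLE2 by 0.85, the primase PRIM1 by 0.82 and the transcription factor E2F1 by 0.76, whereas CCNE1 (-0.09) and TYMS (-0.11) were not called.

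Deoxynucleotide supply and recombination followed the same direction. Of 21 nucleotide synthesis genes 13 fell and 0 rose (median -0.19), with thymidine kinase TK1 at 75.8 to 79.3 CPM under FSS and 137 to 140 CPM in static cells (-0.82, SE 0.05). RRM2, the regulated subunit of ribonucleotide reductase, fell by 0.76 and the CTP synthase CTPS1 by 0.57. Of 26 homologous recombination and Fanconi genes 17 fell and 1 rose (median -0.31), among them the helicase BRIP1 (-0.98, SE 0.09). The riser was FANCB (0.24). Leaving out any single ONS76 library left 0 risers in this list.

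More p53 target genes rose than fell, and inhibitors of the cycle went both ways. Of 19 tested p53 targets 10 rose and 2 fell (median 0.16). CDKN1A, the CDK inhibitor p21, measured 273, 294 and 289 CPM under FSS and 194, 187 and 208 CPM in static cells (0.54, SE 0.05, adjusted p = 3.04e-10). The stress cytokine GDF15 rose by 0.45 and the kinase PLK2 by 0.48, while MDM2 (0.06) was not called and the repair gene DDB2 fell by 0.41. Of 21 genes on the list of D cyclins, CDK inhibitors and their partners 6 rose and 6 fell. CDKN1B, the inhibitor p27, rose by 0.32 and CDKN1C, the inhibitor p57, by 0.55. CDKN2C, the inhibitor p18, fell by 0.26 and the CDK phosphatase CDKN3 by 0.48.

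Many genes of protein supply and turnover fell by small amounts. Of 26 ribosome biogenesis genes 16 fell and 0 rose (median -0.14), among them the nucleolar proteins GNL3 (-0.35), DKC1 (-0.32) and NPM1 (-0.17). Of 32 proteasome subunits 24 fell and 0 rose (median -0.16), with the ATPase PSMC3 lowest (-0.35). Of 20 tRNA synthetases 9 fell and 0 rose. Cytosolic ribosomal protein genes stayed near 0: 2 of 48 fell, 0 rose, and the median was -0.01. In this list 7 genes fell without FSS library 3, 4 without static 2, 1 without FSS library 1 or static 1 and 0 without FSS library 2 or static 3, and 2 rose without FSS library 1.

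A translation factor went against these groups. EIF4A2, a paralogue of the cap-dependent RNA helicase, measured 611, 640 and 625 CPM under FSS and 341, 351 and 346 CPM in static cells. Every FSS library lay above every static one (0.85, SE 0.03, adjusted p = 2.36e-18). In the same list EIF5A, the hypusinated elongation factor, fell by 0.35, and 2 genes rose and 5 fell of 19.

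**Figure D2:**
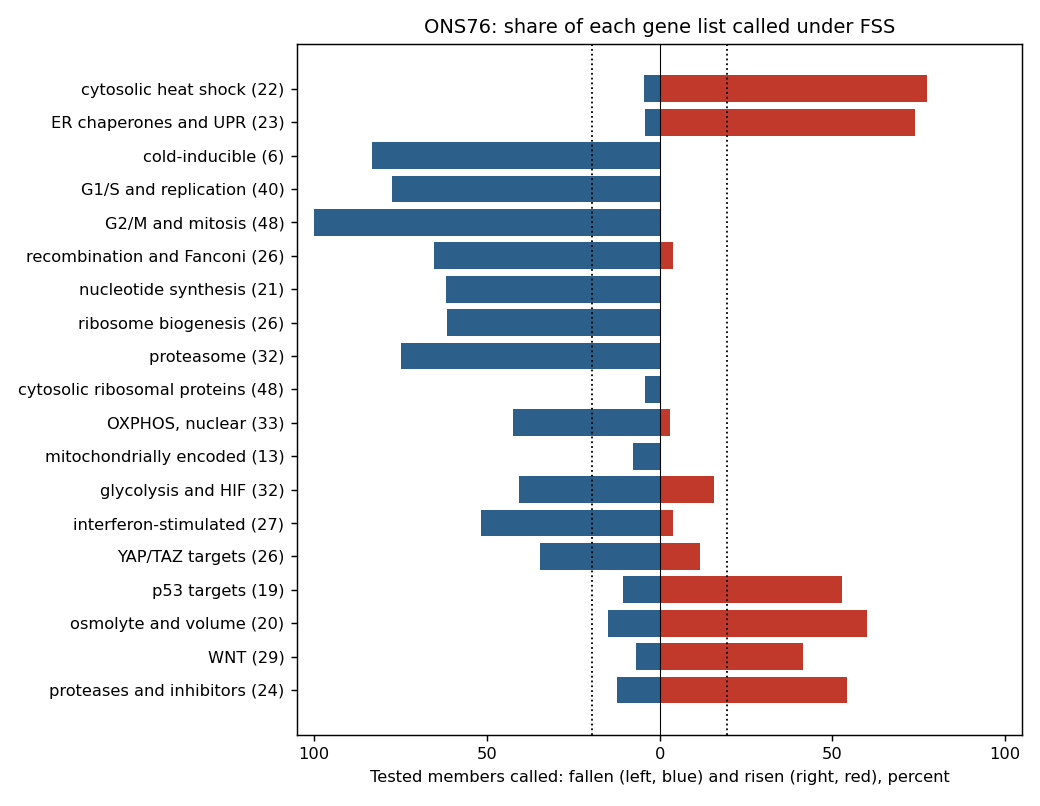
For 19 gene lists, bars give the percent of tested members called as fallen (left, blue) and risen (right, red) under FSS, with the number tested in brackets, and dotted lines mark the 19.6% risen and 19.5% fallen among genes at 1 CPM or more. The mitotic list reaches 48 of 48 fallen and both chaperone lists reach 17 risen, while cytosolic ribosomal proteins stay under both lines.

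More genes of energy metabolism fell than rose with all libraries. Of 32 glycolysis and hypoxia-inducible genes 13 fell and 5 rose (median -0.10). PDK1, the kinase that shuts pyruvate out of the mitochondrion, measured 8.10, 10.5 and 9.70 CPM under FSS and 22.3, 19.7 and 21.4 CPM in static cells (-1.16, SE 0.09, adjusted p = 2.93e-11). The glycolytic enzymes LDHA, ENO1 and GAPDH fell by 0.20, 0.23 and 0.16. The growth factor VEGFA rose by 0.48, the collagen hydroxylase P4HA1 by 0.44 and PDK3 by 0.45, and the glucose transporter SLC2A1 (0.09) was not called. Of 33 nuclear genes of the respiratory chain 14 fell and 1 rose (median -0.11), with ATP5F1D at -0.46 and CYC1 at -0.36. The glycolysis count rested on the libraries used: 7 genes fell and 3 rose against static library 3 alone, 3 fell and 5 rose against static 2 alone, and 9 fell and 3 rose against static 1 alone. Its falls numbered 8 without FSS library 1 or 2 and 7 without static 1. Falls of the respiratory chain genes numbered 7, 7 and 11 against static 3, 2 and 1 alone.

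Aldo-keto reductases rose, and the list of NRF2 targets they belong to was mixed. AKR1C1, which reduces steroids and lipid aldehydes, measured 36.9, 42.7 and 39.0 CPM under FSS and 13.1, 13.6 and 14.3 CPM in static cells (1.54, SE 0.10, adjusted p = 3.43e-13). AKR1C2 and AKR1C3 rose by 0.77 and 0.81, but these copies are alike in sequence and reads may be shared. NQO1 and SLC7A11 fell by 0.39 and 0.34, and the whole NRF2 list had 5 risen and 8 fallen of 23. Lipid genes stood out less: 9 of 28 cholesterol genes rose and 1 fell, and the desaturase SCD rose by 0.31.

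More interferon-stimulated genes fell than rose. Of 27 tested members 14 fell and 1 rose, with a median of -0.50; the riser was SAMHD1 (0.41), a dNTP hydrolase. OASL, an antiviral protein of the oligoadenylate synthetase family, measured 3.46, 3.16 and 4.64 CPM under FSS and 10.04, 10.8 and 11.1 CPM in static cells, without overlap (-1.505, SE 0.15, adjusted p = 1.24e-09). ISG15 and PARP9, whose promoters are shown above, fell by 0.68 and 0.88, BST2 by 1.34 and IFI35 by 1.07. STAT2, a signal transducer of the interferon receptor, was not called (0.03). Among NF-kB genes and cytokines 6 rose and 7 fell of 25, and 4 rose and 5 fell without static 1. Called members made up 52%, against 28.0% of all tested genes and 39.1% of those at a mean of 1 CPM or more. The inhibitor NFKBIA (0.40) and cyclooxygenase PTGS2 (0.51) were higher and the feedback gene TNFAIP3 was lower (-0.47). Against static library 3 alone the changes of these genes were 0.30, 0.42 and -0.40.

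Signalling genes held the largest rise among genes with a symbol at 5 CPM or more whose groups did not overlap. ARRB1 (chr11:75264182-75351705), beta-arrestin 1, which turns off and redirects G protein-coupled receptors, measured 8.05, 10.8 and 11.0 CPM under FSS and 2.41, 2.08 and 2.01 CPM in static cells. It was 4.56-fold higher (2.19, SE 0.13, adjusted p = 3.57e-14). BMP7, a secreted bone morphogenetic protein, measured 7.10, 6.03 and 5.82 CPM against 1.89, 2.104 and 1.53 CPM (1.77, SE 0.12, adjusted p = 6.38e-13). Of 26 BMP pathway genes 10 rose and 2 fell: the inhibitory SMAD6 (0.87) and the target ID3 (0.45) rose, and the BMP and activin antagonist FST fell by 0.53.

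Insulin-like growth factor binding proteins split. IGFBP5 measured 337, 325 and 307 CPM under FSS and 132, 129 and 109 CPM in static cells (1.39, SE 0.06, adjusted p = 2.37e-18). IGFBP3 measured 1.90, 2.01 and 2.92 CPM against 4.64, 5.59 and 5.80 CPM (-1.22, SE 0.12). Both bind the same ligands outside the cell, and neither gene's groups overlapped. The receptor substrate IRS1 fell by 0.49 and the clearance receptor IGF2R rose by 0.46.

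Other pathways moved gene by gene. In the WNT list 12 rose and 2 fell of 29: the antagonist DKK1 measured 48.4, 51.0 and 57.7 CPM under FSS and 107, 107 and 114 CPM in static cells (-1.06, SE 0.06), and the co-receptor LRP5 rose by 0.55. In the NOTCH list 8 rose and 4 fell of 19, with the receptor NOTCH1 at 904 to 919 CPM under FSS and 612 to 636 CPM in static cells (0.54, SE 0.04) and its target HES4 lower (-0.76). The rises of the NOTCH list numbered 4 without static library 3 and 5 without FSS library 2, and its falls 2 without FSS library 1, FSS library 2 or static 1. Against static 3, 2 and 1 alone 3, 4 and 3 of its genes rose and 3, 2 and 4 fell. The Eph receptors EPHB3 and EPHB6 rose by 1.14 and 1.00, and the netrin and repulsive guidance receptor NEO1 by 1.14.

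Genes known for sensing shear and touch were called in part. Of 17 tested mechanosensitive channel genes 5 rose and 3 fell. Called members made up 47.1%, against 28.0% of all tested genes and 39.1% of those at a mean of 1 CPM or more. Among them were the stretch-gated channels TMEM63A (0.30) and TMEM63B (0.24) and the ATP-gated channel P2RX4 (-0.56). Against static library 3 alone TMEM63A (0.40) and TMEM63B (0.30) were still called, and P2RX4 (-0.49) was not. Rises of the list numbered 3 without static 2, and 1 gene fell without FSS library 2 or static 1. PIEZO1, the mechanically gated channel, measured 95.4, 90.6 and 93.5 CPM under FSS and 85.3, 87.9 and 93.1 CPM in static cells, groups that overlapped, and was not called (0.07, SE 0.05, adjusted p = 0.307). KLF2 (-0.06), KLF4 (0.07) and FOS (0.03) were not called either. KLF15 rose by 0.91 and the nuclear receptor NR4A2 by 0.83, and EGR1 fell by 0.89. Of 26 YAP/TAZ target genes 9 fell and 3 rose (median -0.16), among them CCN1 (-0.79) and ANKRD1 (-1.79).

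More genes of ion and water handling rose than fell. Of 20 osmolyte and ion transport genes 12 rose and 3 fell (median 0.29). AQP3, a water and glycerol channel, measured 24.9, 26.9 and 25.6 CPM under FSS and 9.70, 7.97 and 9.70 CPM in static cells (1.499, SE 0.09, adjusted p = 9.71e-14). The sodium pump subunit ATP1B1 rose by 0.64 and the taurine transporter SLC6A6 fell by 0.50.

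Matrix genes rose more often than they fell. Of 24 proteases and inhibitors 13 rose and 3 fell, with MMP2, a gelatinase, at 59.8 to 61.8 CPM under FSS and 29.1 to 34.8 CPM in static cells (0.95, SE 0.05), and the membrane protease MMP15 up by 0.90. VCAN, the proteoglycan versican, measured 21.1, 23.2 and 22.8 CPM against 9.52, 10.4 and 9.15 CPM (1.21, SE 0.08). The basement membrane genes HSPG2, COL4A5 and LAMB1 rose by 0.51, 0.59 and 0.34, while COL5A1 fell by 0.68. Of 29 collagens and laminins 10 rose and 7 fell.

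Of 21 keratin and basal epithelial genes 9 fell and 2 rose. KRT14, a basal keratin, measured 1.56, 1.67 and 2.03 CPM under FSS and 4.08, 5.09 and 6.39 CPM in static cells (-1.56, SE 0.24, adjusted p = 6.81e-06), and reads of related keratins may be shared. The desmosomal cadherin DSG2 fell by 0.84 and plakophilin PKP3 by 0.54, whereas desmoplakin DSP rose by 0.31. Of 17 S100 and annexin genes 10 fell and 3 rose, with S100P at -1.23 and ANXA1 at -0.61. The actin-capping protein CAPG fell by 1.18 and the carboxypeptidase CPA4 by 1.18.

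**Figure D3:**
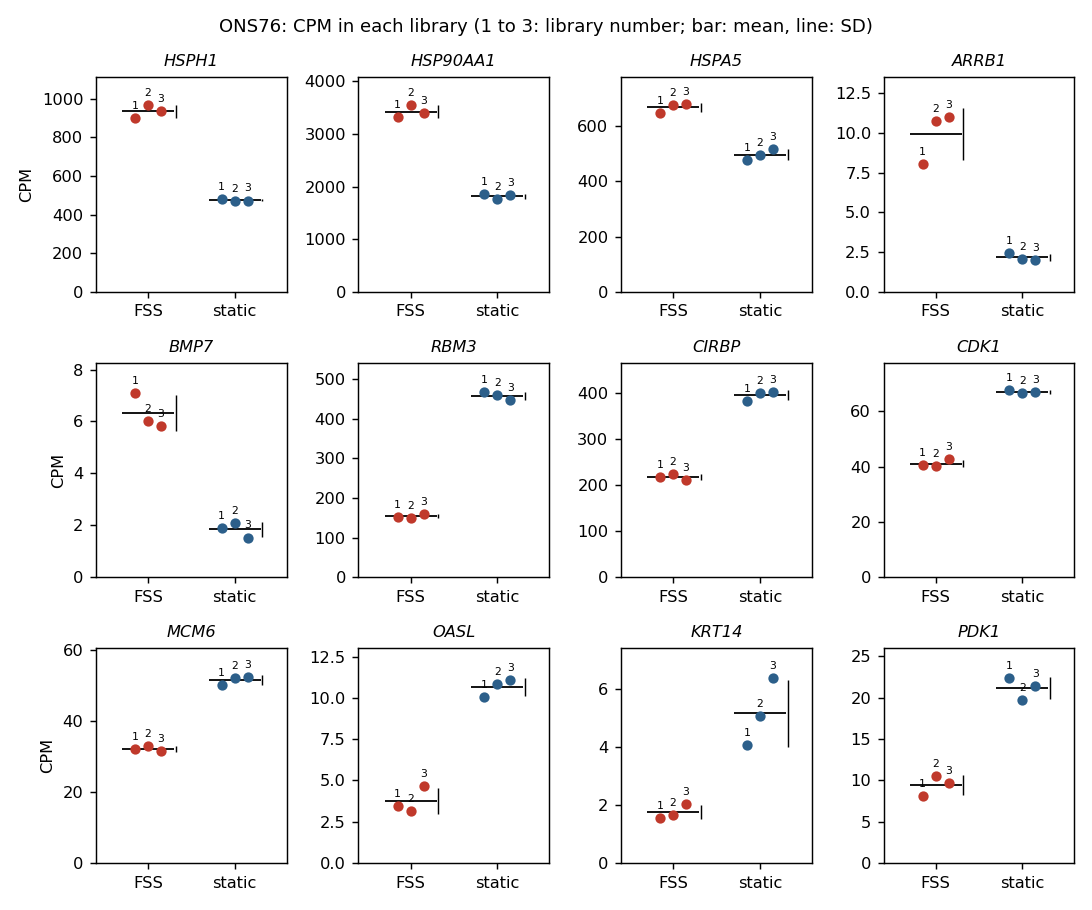
CPM of 12 genes in each of the 3 FSS (red) and 3 static (blue) ONS76 libraries, with library numbers above the points, a bar at the mean and a vertical line for the SD. In each panel the groups are apart, with HSPH1, HSP90AA1, HSPA5, ARRB1 and BMP7 higher and the other 7 genes lower under FSS.

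The dependence on the static libraries was measured by refitting without them. With static library 3 as the only static library, 1558 genes rose (7.33%) and 1818 fell (8.56%), in all 15.9% of 21248 tested. With library 2 alone 1679 rose (7.90%) and 1389 fell (6.54%), 14.4% of 21245, and with library 1 alone 1478 rose (6.94%) and 1744 fell (8.19%), 15.1% of 21306. The single library was assumed to vary like the other groups. Of the 5505 calls, 3038 (55.2%) were kept in the same direction against static 3, 2862 (52.0%) against static 2 and 3042 (55.3%) against static 1. Leaving out static 3 alone kept 4448 calls (80.8%), close to the 4421 (80.3%) without static 1 and the 4558 (82.8%) without static 2. The calls no longer made in these fits numbered 2467 against static 3, 2643 against static 2 and 2463 against static 1.

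The calls that were lost were smaller than those kept. Their median absolute log2 fold change was 0.25 without static 1 and 2, against 0.36 for calls that were kept. Across the 3 fits with 1 static library, 1788 calls (32.5%) held in every fit and 1204 in none. Only 368 were lost without static 1 and 2 and held in the other fits, 215 of them risen and 153 fallen, against 410 lost only without 1 and 3 and 287 lost only without 2 and 3. Falls of 2-fold or more numbered 351 against static 3, 206 against static 2 and 212 against static 1. Of all calls 13 changed sign against static 3, 17 against static 2 and 12 against static 1. Against static 3 alone 1 gene, TPM1, was called in the opposite direction, and 0 genes were in the other 2 fits.

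**Figure D4:**
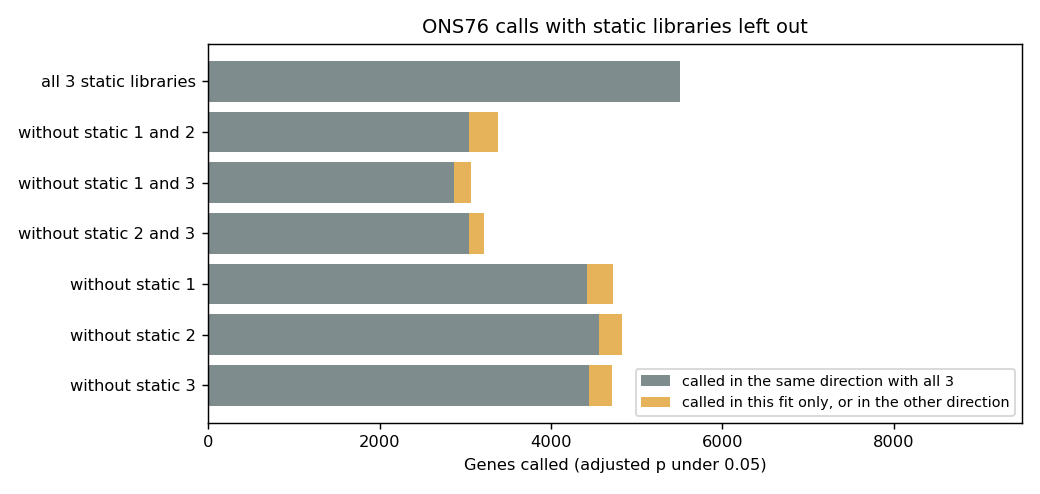
Bars give the number of genes called with all 3 static ONS76 libraries and in fits without the static libraries named, with grey for genes also called in the same direction with all 3 and yellow for the others. Each fit on 1 static library keeps 2862 to 3042 of the 5505 calls, and each fit on a pair keeps 4421 to 4558.

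The groups that lead the response kept their direction in each of these fits, with fewer calls in several. Against static 3 alone 46 of 48 mitotic genes fell, against static 2 alone 43 and against static 1 alone 47. Replication genes gave 28, 26 and 28 falls of 40, heat shock genes 14, 13 and 13 rises of 22, and interferon-stimulated genes 11, 13 and 13 falls of 27. ER chaperone rises numbered 10, 14 and 11 of 23, against 17 with all libraries, and homologous recombination falls 11, 9 and 10 of 26, against 17. Smaller effects held less: proteasome falls numbered 16, 6 and 11 of 32, and WNT rises 5, 6 and 7 of 29. RBM3, HSPH1, HSP90AA1, ARRB1, BMP7, AQP3 and IGFBP5 were called against static 3 alone, with log2 fold changes of -1.53, 0.99, 0.91, 2.31, 2.04, 1.42 and 1.57.

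A few genes did turn on which static library was used. TPM1 (chr15:63042632-63071915), a tropomyosin of actin filaments, measured 15.8, 15.7 and 15.2 CPM under FSS and 95.7, 39.1 and 12.0 CPM in static libraries 1, 2 and 3. Static 1 and 2 lay above every FSS library and static 3 below. The change was -1.68 (SE 0.31, adjusted p = 9.64e-05) with all libraries, -0.71 without static 1, and 0.38 (adjusted p = 0.00206) against static 3 alone. H19, an imprinted long noncoding RNA, measured 19.95, 16.4 and 19.1 CPM under FSS and 33.7, 68.5 and 22.5 CPM in static cells, and its change went from -1.17 (SE 0.20) to -0.61 without static 2 and to -0.28 (adjusted p = 0.231) against static 3 alone.

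MYH7, the slow myosin heavy chain of heart and skeletal muscle, measured 0.0264, 0 and 0.0783 CPM under FSS and 21.4, 7.36 and 0.0558 CPM in static cells. It was called lower with all libraries (adjusted p = 4.00e-07) and not against static 3 alone (adjusted p = 0.871). MYH6, its cardiac relative, did not pass the filter and measured 34.6, 13.8 and 0.0558 CPM in static libraries 1, 2 and 3 and at most 0.132 CPM under FSS. The 14 cardiac muscle markers summed to 63.8, 28.4 and 6.19 CPM in static cells and 6.89 to 7.67 CPM under FSS, while TNNT2, NPPB, MYL7 and ACTC1 were at 0 in all 6 libraries. ACTN2, a sarcomeric actinin of the same list, measured 1.16, 0.83 and 0.0836 CPM in static libraries 1, 2 and 3 and 0 in each FSS library, and was called lower with all libraries (adjusted p = 4.18e-06) and not against static 3 alone (adjusted p = 0.0522). MYH6 and MYH7 exceeded 1 CPM in static libraries 1 and 2 and in no other ONS76 library, and the cause was not tested.

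Among 9859 genes, static 3 lay 0.5 or more (log2) below both other static libraries in 19 and above both in 2 (PTP4A3 and SGSH). Static 1 lay apart in this way in 3 genes and static 2 in 5. Of the 19 genes low in static 3, 10 are encoded in the mitochondrial genome, which supplies subunits of the respiratory chain. Mitochondrial transcripts took 1.40%, 1.31% and 0.920% of counts in static libraries 1, 2 and 3 and 1.01%, 1.23% and 1.26% under FSS.

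The 13 mitochondrial mRNAs had no direction that held over the static libraries. With all libraries 1 fell, 0 rose and the median was 0.01, while 6 fell without static 3 and 2 without FSS library 3. MT-CO3, a cytochrome c oxidase subunit, measured 1203, 1366 and 1440 CPM under FSS and 1847, 1638 and 1224 CPM in static cells (-0.23, SE 0.08, adjusted p = 0.0230), with overlapping groups. It was not called without static 1 (-0.09) or static 2 (-0.20) or without FSS library 1 (-0.16). Against static 3 alone 11 of the 13 rose and 0 fell (median 0.34), whereas 4 fell and 0 rose against static 2 alone and 7 fell and 0 rose against static 1 alone.

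**Figure D5:**
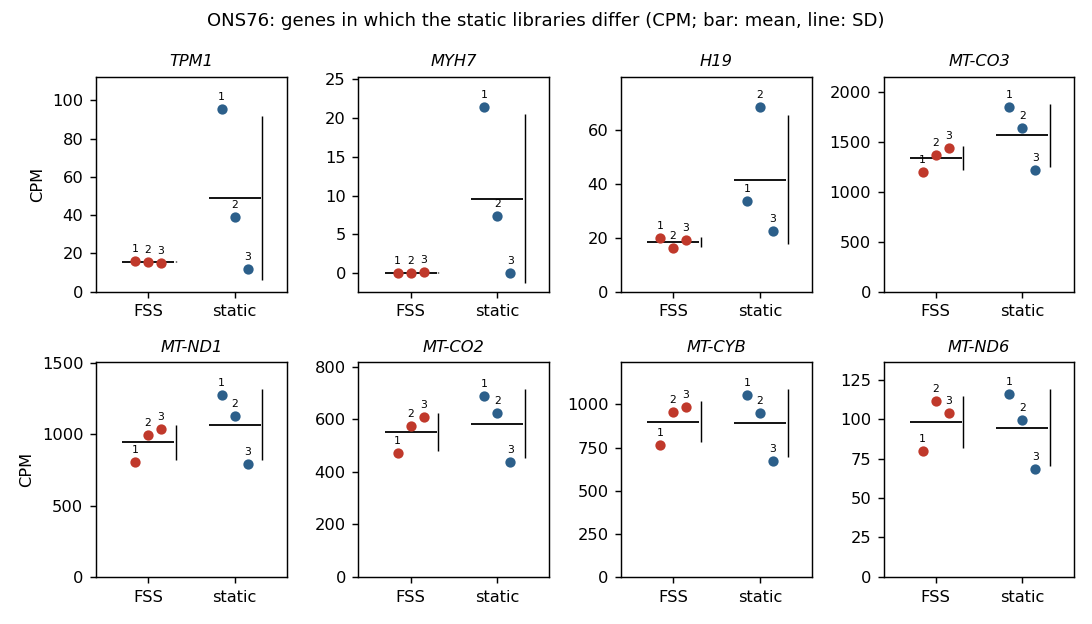
CPM of TPM1, MYH7, H19 and 5 mitochondrial mRNAs in each ONS76 library (numbers above the points), with FSS in red, static in blue, a bar at the mean and a vertical line for the SD. Static library 3 is the lowest static point in all 8 panels, and it lies below every FSS library for TPM1, MT-ND1, MT-CO2, MT-CYB and MT-ND6.

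The response of ONS76 was set against that of DAOY in the same model, where 7786 genes were called in DAOY (39.7%; 19.5% risen and 20.1% fallen). The difference of the responses, DAOY minus ONS76, was called for 3740 genes (19.1% of 19631; 8.34% higher and 10.7% lower in DAOY), and 482 genes were called in opposite directions in the lines with a called difference. RBM3 and HSPH1 moved the same way in both lines, by -1.57 and 0.98 in ONS76 and by -1.15 and 1.33 in DAOY. IGFBP3, OASL and DKK1 fell in ONS76 and rose in DAOY by 1.32, 0.79 and 1.19. The arrestin gene ARRB1 rose by 2.19 in ONS76 and 0.53 in DAOY, a difference (DAOY minus ONS76) of -1.66 (SE 0.17, adjusted p = 7.89e-09).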

How the data were processed

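RNA of 12 libraries was measured, of which 6 from ONS76 are reported (3 under FSS, 3 static), grouped by their titles. Per the labels' protocols, integrity numbers exceeded 9.8, libraries were directional and polyA-selected, and 100 bp read pairs were sequenced to a stated 30 M (1 M is 1e6) per sample. Alignment used HISAT2 2.2.1 and GRCh38, and counting used featureCounts, per the submitters' processing notes. The annotation, the handling of strand and overlaps, and whether pairs or reads were counted were not given in the sources used here. Reads of antisense partners, overlapping genes and near-identical copies may therefore be misassigned. The authors deposited raw counts per gene, and a table of TPM values that matched those counts divided by gene length within 0.1% for 100% of 13462 genes compared, so it is no independent measurement.

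The test of the counts was edgeR 4.0.16 (R 4.3.3): filterByExpr, TMM scaling and a quasi-likelihood fit of 4 group means to all 12 libraries, two-sided, with Benjamini-Hochberg adjustment over 19631 genes (16860 with a symbol, holding 99.96% of counts; 6200 under 1 CPM in all 6 ONS76 libraries) at 0.05. The spread is thus shared with DAOY. SE is the absolute log2 fold change over the square root of F. Alternatives were other scalings, DESeq2 1.42.0, other filters, ONS76 alone, a replicate block, a test against a 1.2-fold change, limma 3.58.1 on log2(TPM + 1) and log2(TPM + 0.1), and leaving out each library or pairs of static libraries. Leaving out mitochondrial genes was added after seeing the data.

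On simulated counts for this contrast (19278 genes) the test recovered 62%, 80%, 100% and 100% of 50 genes each changed by 1.25, 1.5, 2 and 4-fold, with 9 false calls of 180. The changed genes were drawn from those at a mean of 1 CPM or more in ONS76, so recovery below that level was not tried. Far fewer genes were changed than were called in the data, so these rates need not carry over. The comparison, the 60 gene lists (1320 genes tested of 1494) and the rules for named genes were chosen with earlier results of these data known, and lists are described by counts and medians without a set test. Named genes were, per direction, the 15 largest changes at 5 CPM or more without overlap, the 5 largest differences in CPM, up to 4 members per list by smallest p, 5 calls lost and 5 genes apart in static library 3, and 12 further genes; of 280 such genes 255 were called, and those not printed are in the counts. Other list members are named as examples within their counts, and a few genes are not reported here. Coordinates follow GENCODE 29 (GRCh38), whether or not the counts did, and promoters from RefSeq (GRCh38.p14).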

Additional observations from a re-analysis of the deposited data

Results flagged for a closer look

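Of the named genes, 30 were called in opposite directions in the lines, with a called difference of responses (edgeR interaction contrast, adjusted p under 0.05), and 28 of them are given. The difference is given as DAOY minus ONS76 on the log2 scale, from 3 libraries in each of 4 groups.

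Genes that fell in ONS76 and rose in DAOY had positive differences. These were IGFBP3 (2.54), ANKRD1 (2.26), OASL (2.29), DKK1 (2.25), FST (1.66), CCN1 (1.07), ANXA1 (0.82), KLF10 (0.69), S100A10 (0.69), KLF6 (0.56) and JAG2 (0.45). IGFBP3, DKK1 and FST are secreted antagonists or binding proteins of growth factors, and ANKRD1 and CCN1 are on the YAP/TAZ target list.

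Genes that rose in ONS76 and fell in DAOY had negative differences. Among matrix and cell surface genes these were MMP2 (-1.10), SULF2 (-0.89), HSPG2 (-0.69), SDC3 (-0.61), LAMB1 (-0.47), FN1 (-0.42) and NEO1 (-1.31). Among lipid genes these were the exporter ABCG1 (-1.52), the desaturase SCD (-0.90), the LDL receptor ligase MYLIP (-0.75), the cholesterol enzyme FDFT1 (-0.55) and LPIN1 (-0.45). The others were PLK2 (-1.23), ID3 (-0.73), the calcium pump ATP2B4 (-0.72), STRBP (-0.50) and SMG5 (-0.39).

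ATP2B4 was called as risen in ONS76 by 0.13 and was not called without static library 3 (0.12), and STRBP and SMG5 were not called against static library 3 alone (0.17 and 0.15).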

How the results depend on the processing

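Counts of risen and fallen genes stayed within 1.5 times of 2770 and 2735 under DESeq2 (2909 and 2723), RLE (2854 and 2668) and upper-quartile factors (2990 and 2590), no filter (2654 and 2771), the strict filter (2490 and 2599), ONS76 alone (2799 and 2862), limma on TPM + 1 (2689 and 2118) and TPM + 0.1 (2771 and 2138), and without mitochondrial genes (2794 and 2744). Leaving out 1 library gave 2247 to 2797 risen and 2187 to 2822 fallen. The 1.2-fold test gave 678 and 658. Without static 1 and 2, 1 and 3, or 2 and 3 there were 1558, 1679 and 1478 risen and 1818, 1389 and 1744 fallen, in fits with fewer libraries. Changes of 2-fold or more (344 risen, 320 fallen) became 44 and 44 with TPM + 1, which shrinks low genes, 102 and 74 with the strict filter, which drops them, and 203 and 165 in the 1.2-fold test. Falls of 2-fold became 209 in ONS76 alone, 204 with TPM + 0.1, 206 without static 1 and 3 and 212 without static 2 and 3, and the cause was not tested.

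Sign turns are listed for named genes called with all libraries or in the refit. Without static 1 and 2 these were TPM1 (0.38), MT-CO3 (0.13), MT-ND1 (0.25), MT-ND2 (0.34), MT-CO2 (0.34) and MT-ATP6 (0.24), and without static 2 and 3 MT-CYB (-0.23). Other mitochondrial mRNAs changed sign without a call in either fit, among them MT-ATP8 (from -0.23 to 0.21) without static 1 and 2. MT-ND6 (from 0.05 to -0.24) and MT-CO1 (from 0.07 to -0.16) did so without static 2 and 3. Of 7252 named-gene values under 26 alternatives 6948 kept a call in the same direction or stayed uncalled in either direction. Of the others 256 lost the call and 41 gained it. Replicate numbers were not used to pair libraries in the main fit. Same-numbered FSS and static libraries correlated at 0.05, 0.00 and 0.05 in their deviations over 9946 genes. Different-numbered ones correlated at -0.07 to 0.03. With the replicate block 2710 genes rose and 2687 fell, and no named gene changed its call. Genes under 1 CPM are limited by depth, and genes under a mean of 1 CPM were not changed in the simulation. Of changes of 1.25-fold 62% were recovered there, and smaller ones were not tried.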

Other observations

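Calls by transcript class are given for genes at a mean of 1 CPM or more, with no test between classes. Of 11017 protein-coding genes (GENCODE 29 classes) 2270 rose and 2204 fell. Of 380 antisense RNAs 49 rose and 93 fell, and of 505 lincRNAs 58 rose and 92 fell. Of 107 processed pseudogenes 8 rose and 1 fell. The counting's use of strand is not given in the sources used here, so an antisense RNA and its partner cannot be told apart.

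Some markers of other cell types were present at low levels and moved under FSS. PECAM1, an adhesion molecule of endothelial cells, measured 27.2, 24.7 and 23.3 CPM under FSS and 14.1, 15.2 and 14.7 CPM in static cells, a rise of 0.77 (edgeR adjusted p = 5.96e-07). CDH5, the endothelial cadherin, measured 18.5, 18.4 and 19.01 CPM against 15.2, 13.1 and 13.2 CPM and rose by 0.43. KDR of the same list, a VEGF receptor, was under 1 CPM in all 6 libraries and fell by 1.75 (adjusted p = 0.00092), VWF (-0.50) was not called, and the other 5 of the 9 endothelial markers were under 1 CPM and not called. The list summed to 44.96 to 48.1 CPM under FSS and 32.04 to 32.8 CPM in static cells, a sum made up mostly of PECAM1 and CDH5. In the granule-neuron lineage list EN2, a cerebellar homeobox gene, rose by 0.48, ZIC1 rose by 0.57 and PAX6, under 1 CPM, fell by 0.96; ZIC1 and PAX6 were not called against static library 3 alone.

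Clustered replication-dependent histone genes went both ways: of 12 tested 4 rose and 3 fell. Of the 24 genes on the list 9 were at 0 in all 12 libraries. The libraries were polyA-selected, so histone transcripts without a polyA tail would be missed and these counts need not follow total histone mRNA. The risers included H4C14 (0.85), H2AC18 (0.61) and H2BC12 (0.59), and the called changes of the list ran from -1.20 to 0.85.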
